A study of Homo sapiens with 4 samples.

Results

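The AP-1 factors are transcription factors with a basic region that binds DNA and a leucine zipper that joins them in pairs. The members described here are the 10 rows of the deposited expression table whose gene name is JUN, JUNB, JUND, FOS, FOSB, FOSL1, FOSL2, BATF, BATF3 or ATF3, out of 22361 rows in all. Every name matched 1 row with an Ensembl gene ID, and 9 of the 10 members passed the filter on low values. They were measured by RNA-seq in Jurkat cells, a human line from a T-cell acute lymphoblastic leukaemia. The 2 control libraries are from cells with an shRNA to GFP. The 2 ARIEL knockdown libraries are from cells with an shRNA to the long non-coding RNA ARIEL. All cells were infected with lentivirus, placed in puromycin (0.7 µg/ml) for 36 h or more, and collected 72 h after infection. Hairpin sequences were not used here, and loss of ARIEL and any other action of the hairpin cannot be told apart. Nothing says that replicates came from separate cultures, so p-values measure the spread between these 4 libraries, which may be technical. In bulk RNA, fewer cells that hold a transcript and less of it per cell cannot be told apart.

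JUN proteins can pair with each other or with FOS proteins, while FOS proteins bind DNA with a JUN partner. BATF and BATF3 pair with JUN proteins and lack the activation domain of FOS, and ATF3 is a stress-induced factor that often acts as a repressor. In T cells, signals from the antigen receptor reach JUN and FOS through MAP kinases and protein kinase C, and AP-1 pairs join NFAT proteins on promoters such as that of IL2. JUN and FOS are classical immediate early genes, whose short-lived transcripts are made within minutes of a stimulus.

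The bases before the transcription start are shown for JUN, FOS and FOSB, the 3 largest changes of the members in the authors' deposited table, for JUND and for ATF3, the 1 member that fell, because they hold short motifs known for AP-1 and CREB-type factors. They come from RefSeq (build GRCh38.p14), whose promoter table holds 8 of the 10 members, and the build differs from the hg19 named for the expression data. Each line runs 5′ to 3′ over the 250 bases before the start, at chr1:58784048-58784297 (minus strand) for JUN, chr14:75278578-75278827 (plus) for FOS, chr19:45467746-45467995 (plus) for FOSB, chr19:18281623-18281872 (minus) for JUND and chr1:212565157-212565406 (plus) for the first of the ATF3 starts. Capitals mark matches on either strand to the motifs named after the sequences.
JUN: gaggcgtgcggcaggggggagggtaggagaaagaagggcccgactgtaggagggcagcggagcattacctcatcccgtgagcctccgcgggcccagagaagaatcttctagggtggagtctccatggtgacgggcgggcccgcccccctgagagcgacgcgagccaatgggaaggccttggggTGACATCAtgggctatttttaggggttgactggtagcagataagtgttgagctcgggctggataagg
FOS: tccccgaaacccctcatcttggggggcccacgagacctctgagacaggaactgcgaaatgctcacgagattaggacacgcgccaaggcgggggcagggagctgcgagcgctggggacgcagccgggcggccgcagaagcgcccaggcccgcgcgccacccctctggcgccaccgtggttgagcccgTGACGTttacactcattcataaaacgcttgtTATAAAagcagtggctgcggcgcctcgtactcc
FOSB: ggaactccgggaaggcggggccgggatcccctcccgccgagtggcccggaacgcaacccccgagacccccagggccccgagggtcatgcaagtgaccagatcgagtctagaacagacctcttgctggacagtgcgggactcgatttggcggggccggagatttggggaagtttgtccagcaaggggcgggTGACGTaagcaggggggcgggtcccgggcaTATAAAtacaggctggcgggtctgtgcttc
JUND: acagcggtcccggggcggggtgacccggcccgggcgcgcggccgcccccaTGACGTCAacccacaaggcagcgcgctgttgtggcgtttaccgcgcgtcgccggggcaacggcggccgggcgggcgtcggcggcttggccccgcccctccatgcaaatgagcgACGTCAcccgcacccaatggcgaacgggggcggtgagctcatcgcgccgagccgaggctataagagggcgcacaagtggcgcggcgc
ATF3: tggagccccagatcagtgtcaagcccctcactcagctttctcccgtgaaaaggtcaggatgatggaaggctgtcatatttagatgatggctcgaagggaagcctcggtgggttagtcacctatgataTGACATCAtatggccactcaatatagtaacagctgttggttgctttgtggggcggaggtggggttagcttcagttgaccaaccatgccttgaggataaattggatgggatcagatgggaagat

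The capitals in JUN and ATF3 are TGACATCA, the AP-1-like site known from the JUN promoter, which 2.37% of the 35116 promoters in the table hold. In JUN it spans bases 67 to 60 before the start, and in ATF3 bases 123 to 116 before the first of its 2 listed starts. TGACGTCA, the full cAMP response element, was found in JUND alone among the members with a sequence and in 1.65% of all promoters. Its 6-base core TGACGT, which overlaps the full element and was added after the sequences were seen, was found in FOS, FOSB, FOSL2 and JUND, and in 7.10% of all promoters. In FOS it starts 64 bases, in FOSB 60 and in FOSL2 66 bases before the start, so that these 3 cores lie at nearly the distance of the JUN site. A core starting between 75 and 50 bases before the start was found in 1.48% of all promoters, with the window chosen after the matches were seen. TATAAA was found in FOS, FOSB, JUNB and the second ATF3 start, and in 10.7% of all promoters. It began 33, 30 and 31 bases before the start in FOS, FOSB and JUNB, but 230 bases before it in ATF3. TGAGTCA, the consensus AP-1 site (4.20% of all promoters), and the CArG box that serum response factor binds (1.16%) were found in 0 of the 8 members in these windows. Sites farther than 250 bases before the start, or after it, were not searched. Any start of ATF3 or another member that the RefSeq promoter table does not list was not searched either. A match is a description of letters, not a measured site.

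Both knockdown values lay above both control values in every JUN gene, and in 35.6% of all tested genes. Levels are given as rlog values, a log2 scale on which the noisier values are drawn in towards the mean of the gene, so that changes come out too small. JUN stood at rlog values of 10.77 and 10.83 in control cells and 11.32 and 11.48 after knockdown. The groups did not overlap, and the lowest knockdown value lay 0.49 above the highest control value. The difference was 0.60 ± 0.04 (SE, 2 libraries per group; limma, adjusted p = 3.90e-45), and 11 of the 14601 genes tested rose by more on this scale. In the authors' deposited table JUN was 2.20-fold higher (log2 fold change 1.14 ± 0.10, SE).

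JUNB, which can oppose JUN at some promoters, stood at rlog values of 11.63 and 11.66 in control cells and 12.01 and 12.10 after knockdown. Both knockdown values lay above both control values, a difference of 0.41 ± 0.04 (SE, 2 libraries per group; limma, adjusted p = 8.01e-26). JUND, usually the most steadily expressed of the 3 JUN genes, had 11.23 and 11.40 in control cells and 11.65 and 11.70 after knockdown. Its control libraries stood 0.17 apart, and the smallest gap between the groups was 0.24. The difference was 0.35 ± 0.04 (SE; limma, adjusted p = 1.25e-17). JUNB was 1.70-fold and JUND 1.56-fold higher in the authors' deposited table.

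Of the 4 FOS genes, 3 rose and 1 was too low to test, where 22.1% of all tested genes were called higher. FOSB stood at rlog values of 8.03 and 8.10 in control cells and 8.66 in each knockdown library. The knockdown replicates were within 0.01 of each other, and the groups were 0.56 apart at their nearest, the widest gap of the members. The rlog difference was 0.59 ± 0.05 (SE, 2 libraries per group; limma, adjusted p = 2.22e-33). FOSB in the authors' deposited table had the largest change of the members, 2.91-fold higher (log2 fold change 1.54 ± 0.16, SE), and 6 of the 14551 genes with an adjusted p there rose by more. At the level of FOSB the rlog difference of called genes was typically 0.40 of the deposited log2 fold change, against 0.54 at the level of JUNB, so members of different level should not be ranked by rlog difference.

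FOS stood at rlog values of 9.01 and 9.10 in control cells and 9.42 and 9.59 after knockdown. The knockdown libraries lay above the control libraries and differed by 0.17 between themselves. The difference was 0.45 ± 0.05 (SE, 2 libraries per group; limma, adjusted p = 4.53e-19), and in the authors' deposited table FOS was 1.97-fold higher. FOSL2, which encodes Fra-2, had 11.33 and 11.48 in control cells and 11.62 and 11.69 after knockdown. It had the smallest rise of the members called, with a gap of 0.14 between the groups and a difference of 0.25 ± 0.04 (SE; limma, adjusted p = 2.89e-09), and was 1.37-fold higher in the authors' deposited table. FOSL1, which encodes Fra-1, had 1.86, 1.85, 1.88 and 1.85 across control replicates 1 and 2 and knockdown replicates 1 and 2. It was below the filter and was not tested, and the authors' deposited table gives it a log2 fold change of 0.06 ± 0.09 (SE) with no adjusted p.

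Of BATF, BATF3 and ATF3, 0 were called higher by limma or in the authors' deposited table, and 0 were higher at an unadjusted p under 0.05. Of all tested genes 22.1% were called higher by limma, and 20.1% of genes in the deposited table. Among so few genes, the count of 0 was not tested against these shares. BATF, a partner of JUN proteins that works with IRF4 in lymphocytes, stood at rlog values of 9.79 in both controls and 9.77 and 9.85 after knockdown. The groups overlapped, with a difference of 0.02 ± 0.05 (SE, 2 libraries per group; limma, adjusted p = 0.792). BATF3, known for its part in dendritic cell development, had 9.57 and 9.53 in control cells and 9.46 and 9.51 after knockdown. Its groups were separated by only 0.03, and its difference of -0.07 ± 0.05 was not called (limma, adjusted p = 0.237). ATF3 was the 1 member that fell, from 9.91 and 9.82 in control cells to 9.62 and 9.64 after knockdown. The difference was -0.23 ± 0.05 (SE; limma, adjusted p = 7.46e-06), and ATF3 was 1.41-fold lower in the authors' deposited table (log2 fold change -0.49 ± 0.12, SE).

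**Figure D1:**
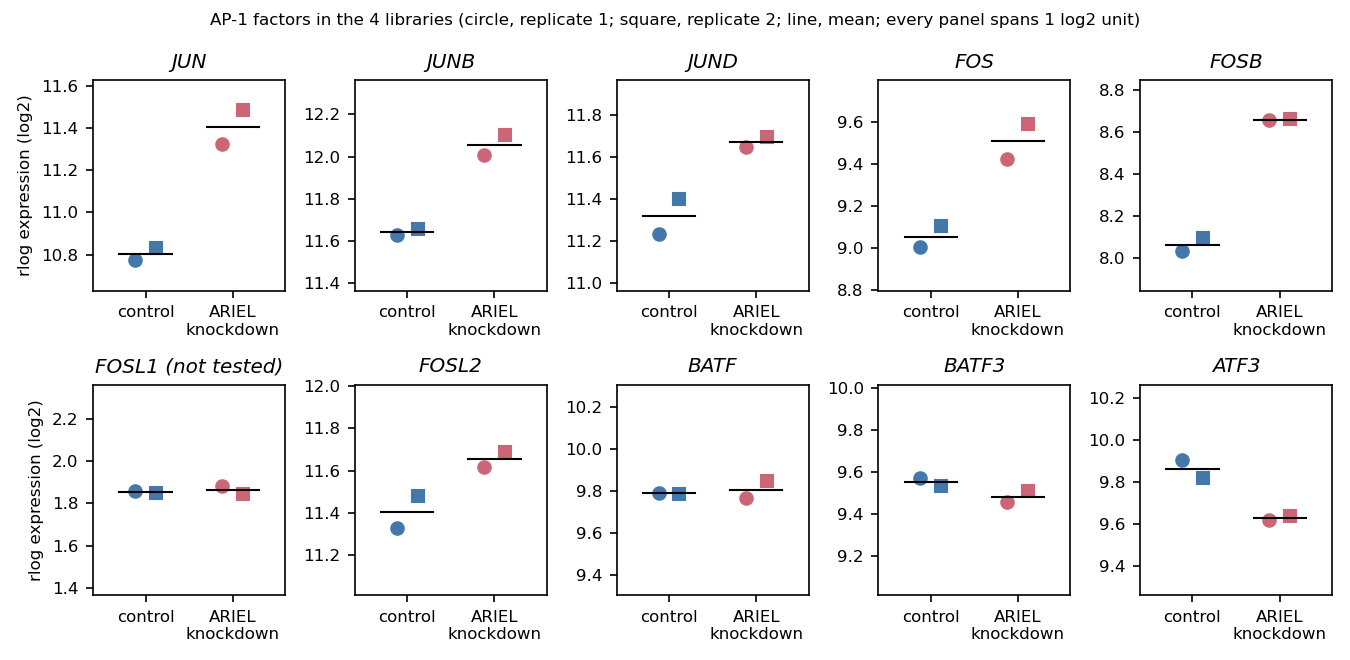
Rlog expression (log2 scale, vertical axis) of each AP-1 factor in the 2 control and 2 ARIEL knockdown libraries, with circles for replicate 1, squares for replicate 2 and a line for the group mean. Every panel spans the same height, and the knockdown points lie above the control points in JUN, JUNB, JUND, FOS, FOSB and FOSL2 and below them in ATF3 and, by 0.03, BATF3.

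Together, 6 of the 9 tested members rose and 1 fell, with 2 not called. Of all 14601 tested genes 44.4% were called (limma, adjusted p under 0.05), with 22.1% of all higher and 22.4% lower. Knockdown values lay above control values without overlap in 6 members, against 35.6% of tested genes, and below in 2 members, against 35.1%. The median rlog difference of the 9 members was 0.35, beside 0.00 over all tested genes. The library medians of tested genes lay between 11.31 and 11.32, and the values hold no spike-in RNA. A shift shared by most genes would therefore not show, and rises and falls are relative to the other genes. In the authors' deposited table the same count of members passed an adjusted p under 0.05, 6 higher and 1 lower, against 20.1% and 19.3% of genes there. On the rlog scale the 6 rises lay between the 97.4th percentile of all tested genes (FOSL2) and the 99.9th (JUN and FOSB), and ATF3 at percentile 5.70.

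The calls rest on a spread shared by genes of similar level. When the variance of each gene was taken alone, with 2 residual degrees of freedom, limma called 0 of the 9 members and 0 of all genes (adjusted p between 0.0834 and 0.224 for the 7 called above), while 5 members and 31.2% of all genes had an unadjusted p under 0.05. The members' own standard errors were 0.09 for JUN, 0.10 for FOS, 0.09 for JUND, 0.08 for FOSL2 and 0.05 for JUNB, larger than the shared ones given with them. They were smaller than the shared ones for FOSB (0.03), BATF3 (0.03), BATF (0.04) and ATF3 (0.04). Without ARIEL knockdown replicate 2 the count of genes called over the whole table fell from 6488 to 4225, while 6 members were still called higher and 1 lower. That library had the higher of the knockdown values in all 9 tested members, and without it the difference was 0.52 for JUN and 0.37 for FOS. In the control libraries, replicate 2 likewise had the higher value in all 6 risen members. The members may therefore not vary independently of each other, which was not tested.

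**Figure D2:**
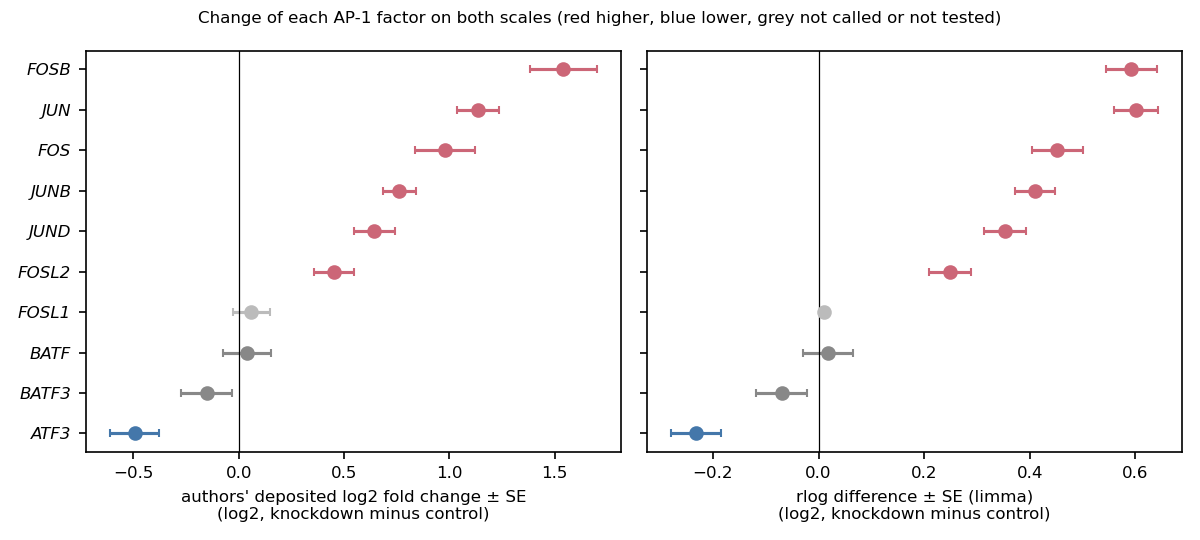
Change of each AP-1 factor (knockdown minus control, log2), with the authors' deposited log2 fold change ± SE on the left and the rlog difference ± SE from limma on the right; FOSL1 was not tested and has no SE there. Red points were called higher, the blue point lower, and the order by deposited change runs from FOSB at 1.54 to ATF3 at -0.49.

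In the authors' deposited table the order of the rises was FOSB, JUN, FOS, JUNB, JUND and FOSL2. Some neighbours in this order were not separated beyond their errors. JUN and FOS differed by 0.16 in log2 fold change with a combined SE of 0.17, and JUNB and JUND by 0.12 with a combined SE of 0.12. FOSB exceeded JUN by 0.41 with a combined SE of 0.19, and FOSL2 exceeded FOSL1, the next in order, by 0.39 with a combined SE of 0.13. These gaps were not tested.

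Levels of different members were compared per length, as the mean rlog minus log2 of the transcript length in kilobases. By this measure JUNB was the most abundant member in control libraries at 10.78, followed by JUND at 10.42, BATF at 9.82, JUN at 8.98, ATF3 at 8.79, FOSL2 at 8.66, BATF3 at 8.32, FOS at 7.94, FOSB at 6.15 and FOSL1 at 1.11. ATF3 and FOSL2 differed by 0.13, about their combined SD of 0.12. In knockdown libraries JUNB (11.19) and JUND (10.77) again stood highest, and JUN at 9.58 lay 0.25 below BATF, where it had lain 0.84 below in control libraries. FOSL2 stood above ATF3 there, by 0.35. FOS at 8.40 lay 0.16 below ATF3 and 0.15 above BATF3, gaps close to their combined SDs of 0.12 and 0.12. FOSB remained far below these at 6.74. So the FOSB transcript, which changed by the largest deposited fold, was low beside the JUN genes in both groups. Lengths are of the longest GENCODE 29 transcript, which need not be the one expressed.

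The JUN genes have GC-rich transcripts, and over all genes the difference between the groups rose with GC content. The median rlog difference was -0.08 in the lowest GC decile of genes and 0.08 in the highest. The transcripts of JUND (69.7% GC) and JUNB (64.9%) belong to the highest decile, FOSB (57.7%) and JUN (56.7%) lie lower, and ATF3 (46.7%) is near the middle. With the trend of each library with GC content and length removed, the differences were 0.57 for JUN, 0.56 for FOSB, 0.42 for FOS, 0.31 for JUNB, 0.25 for FOSL2 and 0.23 for JUND. JUND therefore moved by more than 1.5 times, from 0.35. After this step 6 members were still called higher, against 28.8% of the 12719 genes with transcript properties, and ATF3 lower at -0.23, against 24.1% (limma, adjusted p = 1.58e-05 for ATF3).

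**Figure D3:**
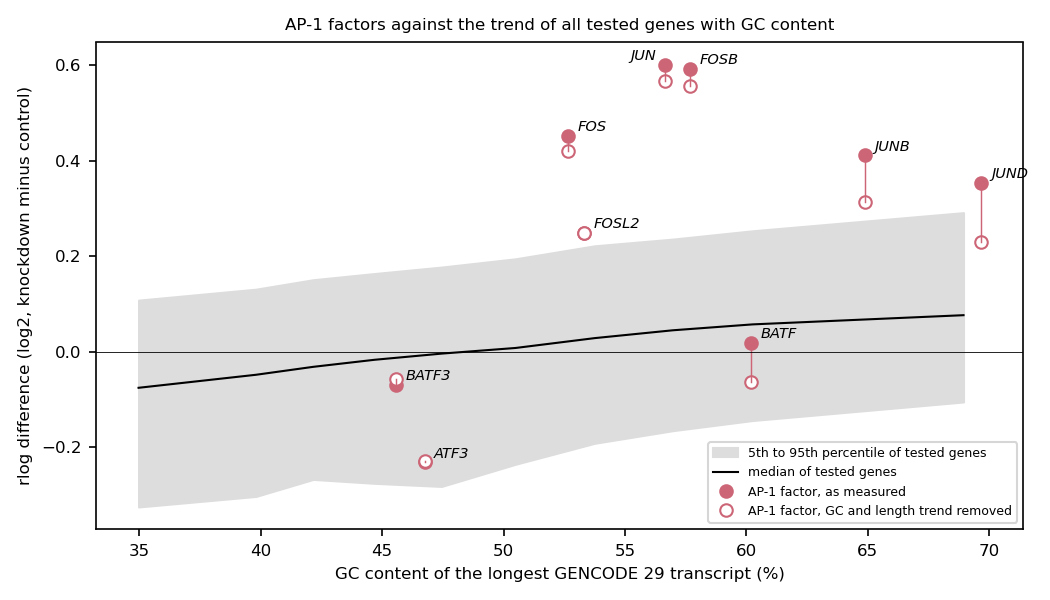
Rlog difference (log2, knockdown minus control) against transcript GC content in percent, with the median (line) and the 5th to 95th percentiles (grey) of tested genes in GC deciles. Filled points are the AP-1 factors as measured, and open points are the same factors after removal of the trend with GC content and length. The line and grey band show differences as measured, so only the filled points can be set against them. The filled points of JUN, JUNB, FOS, FOSB and FOSL2 lie above the grey band. The filled point of JUND lies beyond the right end of the band, above the 95th percentile of the highest decile (0.29). Those of ATF3, BATF and BATF3 lie inside the band. From its filled to its open point, JUND falls from 0.35 to 0.23.

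Members that lie close together in the genome differed in their calls, and the differences between them were not tested. The RefSeq gene order places JDP2 between FOS and BATF on chromosome 14. JDP2 encodes a bZIP factor that represses AP-1 activity. Its rlog values were 6.99 and 6.83 in control cells and 6.75 and 6.74 after knockdown, which gives a difference of -0.17 ± 0.04 (SE, 2 libraries per group; limma, adjusted p = 0.000197). Thus FOS rose, its neighbour JDP2 fell and BATF was not called. On chromosome 1, ATF3 and BATF3 are separated by 1 protein-coding gene, and only ATF3 was called. On the side of FOS away from JDP2, TMED10, a cargo receptor of the secretory pathway, differed by -0.21.

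Protein-coding genes beside the members were taken as the 3 to either side in RefSeq order. Of the 35 distinct genes so placed around the 6 risen members, other than members, 23 were tested, 7 were higher and 5 lower, beside 22.1% and 22.4% of all tested genes, with a median difference of 0.04. Of the 23, 2 rose by at least as much as FOSL2, the smallest rise of a member. FOSL2 lay at the 97.4th percentile of all tested genes. Around JUN, OMA1 and FGGY were lower at -0.13 and -0.11. Around JUNB all 4 tested neighbours were higher, with GET3 at 0.27 and HOOK2, PRDX2 and RNASEH2A between 0.11 and 0.13. HOOK2 shares exon sequence with JUNB on the opposite strand. The libraries were strand-specific, but the strand setting of the counting is not stated. Around FOSB, VASP, an actin regulator, differed by 0.30 and the DNA repair gene ERCC1 by 0.22, both smaller than the 0.59 of FOSB.

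**Figure D4:**
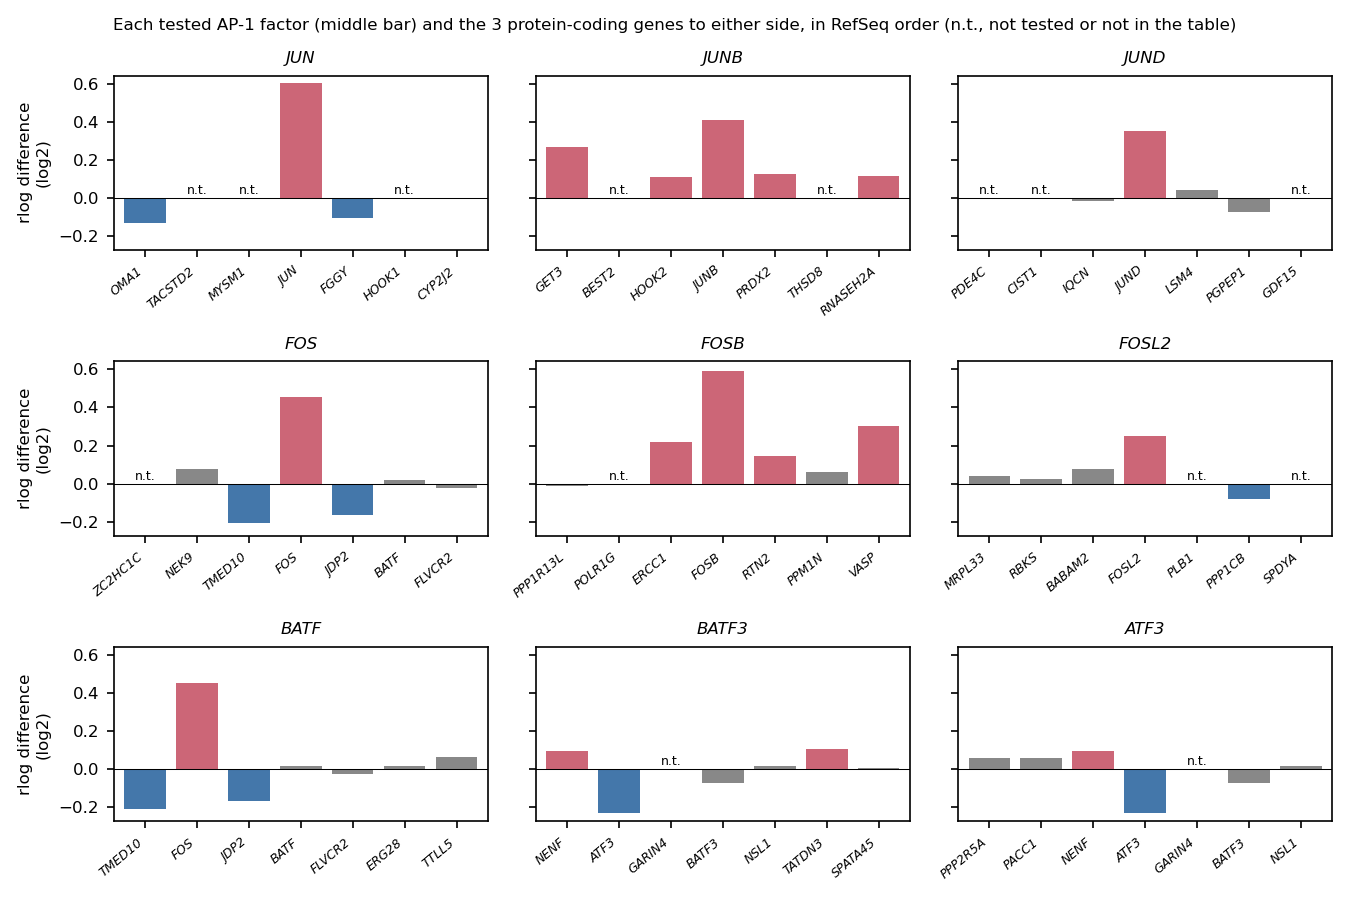
Rlog difference (log2, knockdown minus control, vertical axis) of each tested AP-1 factor and of the 3 protein-coding genes to either side in RefSeq order, 1 panel per factor; red bars were called higher, blue lower, grey not called, and n.t. marks genes not tested or not matched. In the FOS panel FOS rises at 0.45 between TMED10 at -0.21 and JDP2 at -0.17.

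Genes for the partners of AP-1 were more often lower than higher. Of 15 tested genes for dimer partners and for factors that share composite sites with AP-1, 8 fell and 2 rose, with a median of -0.12. The background is 22.4% lower, 22.1% higher and a median of 0.00 over all tested genes. ATF7 and ATF2, which pair with JUN on cAMP response elements, differed by -0.35 ± 0.05 and -0.24 ± 0.03 (SE; limma, adjusted p = 2.43e-13 and 1.15e-11). With the GC and length trend removed ATF2 stood at -0.15 and was still called. NFATC2, the NFAT protein that joins AP-1 on cytokine promoters, differed by -0.24 ± 0.04 (limma, adjusted p = 3.09e-07). MAFK, a small MAF protein without an activation domain, was the larger of the 2 rises at 0.38 ± 0.03 (limma, adjusted p = 8.47e-30). The ATF7 values were 10.50 and 10.49 in control cells and 10.21 and 10.07 after knockdown, with no overlap.

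Transcripts of the kinases that signal to AP-1 showed small differences in both directions. Beside 22.1% higher and 22.4% lower of all tested genes, 4 of 17 tested rose, 2 fell and 11 were not called. The median of the 17 was 0.00. The rises included MAPKAPK2, a kinase downstream of p38, at 0.18 ± 0.04 (SE) and RPS6KA1, a kinase downstream of ERK, at 0.16 ± 0.03, with MAP2K2, an activator of ERK, at 0.13 ± 0.03. MAPK14, which encodes p38 alpha, differed by -0.15 ± 0.03. The JNK genes MAPK8 (-0.07) and MAPK9 (-0.01) were not called. With the GC and length trend removed 6 rose and 3 fell, against 28.8% and 24.1% of genes, and MAP2K2 stood at 0.07. These are transcripts, and kinase activity was not measured.

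Among 9 tested factors that act on the FOS and JUN promoters, 2 rose and 2 fell (4 and 2 with the GC and length trend removed). Of all tested genes 22.1% rose and 22.4% fell (28.8% and 24.1% with the trend removed). SRF, which binds the FOS serum response element, had 13.55 and 13.65 in control cells and 13.79 and 13.87 after knockdown, which gives a difference of 0.23 ± 0.03 (SE, 2 libraries per group; limma, adjusted p = 3.07e-11). Its partner genes differed in sign, with ELK1 at 0.11 ± 0.03 and ELK3, often a repressor, at -0.21 ± 0.05. MEF2A differed by -0.11 ± 0.04. With the trend removed MEF2A stood at -0.04 and was not called (limma, adjusted p = 0.192), MKL1 was called lower in its place, and ELK1 stood at 0.06. Of 8 tested genes for the turnover or repression of AP-1, 1 rose and 2 fell (2 and 2 with each library centred on its median, and with the trend removed). Beside these counts stand the same 22.1% and 22.4% of all tested genes. ZFP36L1, which promotes decay of AU-rich transcripts, differed by -0.16 ± 0.05, RFWD2, the COP1 ubiquitin ligase that acts on JUN, by -0.11 ± 0.04, and MEN1, whose product binds JUND, by 0.12 ± 0.04 (0.07 with the trend removed).

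Immediate early genes outside AP-1 were more often higher than lower. Of 18 tested, 12 rose, against 22.1% of all tested genes, and 1 fell, against 22.4%, with a median of 0.15. DUSP2, a MAP kinase phosphatase, had 12.87 and 12.94 in control cells and 13.44 and 13.50 after knockdown, which gives a difference of 0.56 ± 0.03 (SE, 2 libraries per group; limma, adjusted p = 1.57e-61). GADD45B, a stress sensor, differed by 0.54 ± 0.05, PPP1R15A, a phosphatase subunit that acts on eIF2, by 0.43 ± 0.04, and the orphan receptor gene NR4A1 by 0.33 ± 0.05. SRF is in this list as well as the one before, and ZFP36 is in this list and that for turnover. MCL1, an apoptosis inhibitor, was the 1 gene of this list that fell, at -0.10.

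Among genes known as AP-1 targets, 0 of the 7 that passed the filter, of 18 listed, were called higher by limma. By unadjusted p under 0.05, 1 was higher, and the authors' deposited table calls 0 higher and 2 lower. With adjustment 3 fell and 4 were not called, where 22.1% of all tested genes were higher and 22.4% lower. MMP1, SPP1 and HMOX1 were listed at 0 in all libraries. With quantile normalization 1 rose. CD69, an activation marker of T cells, had 12.05 and 12.06 in control cells and 11.39 and 11.38 after knockdown. The groups were far apart, with a difference of -0.67 ± 0.04 (SE, 2 libraries per group; limma, adjusted p = 7.81e-65). VIM, the intermediate filament vimentin, differed by -0.17 ± 0.03, and IL2RA, the interleukin-2 receptor alpha chain, by -0.10 ± 0.03 with low values (5.62 and 5.61 against 5.47 and 5.55). IL2RA was not called with the GC and length trend removed (limma, adjusted p = 0.0516) or in the authors' deposited table (adjusted p = 0.103). IL2 itself was near 1.9 in every library and was not tested.

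**Figure D5:**
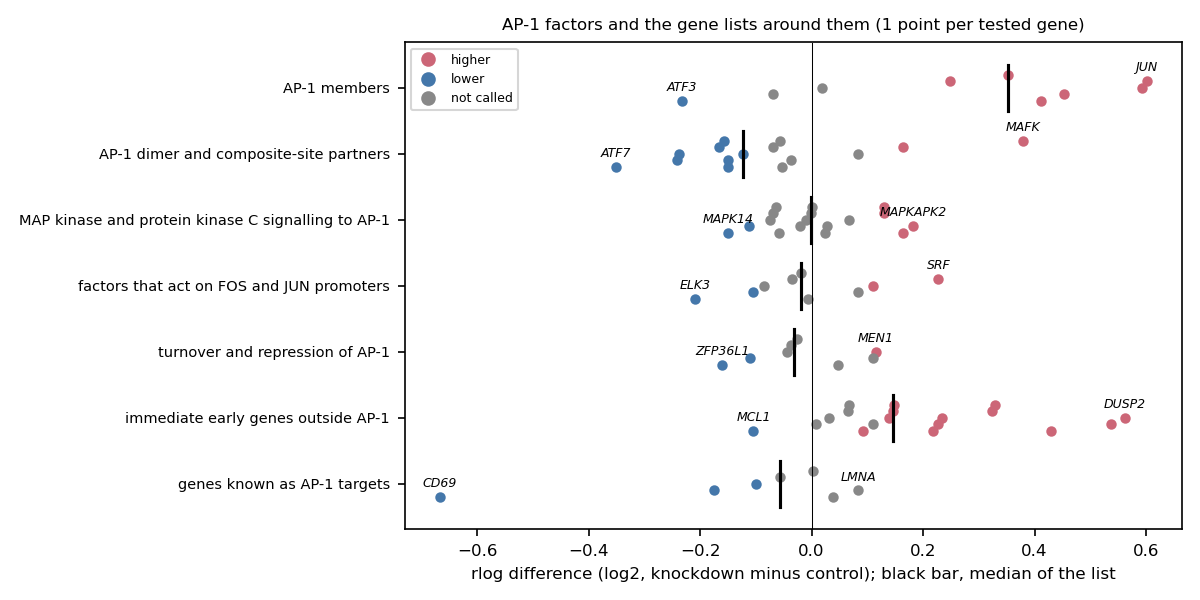
Rlog difference (log2, knockdown minus control, horizontal axis) of each tested gene in the AP-1 family and in the 6 lists around it, coloured by call, with the median of each list as a black bar and its extreme genes named. The medians are 0.35 for the AP-1 factors and 0.15 for other immediate early genes, and -0.12 for the partners.

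The genes whose 4 values lay closest to those of JUN, after subtraction of each gene's mean, were CPLX1, FAM171A2, HKDC1 and HIST1H2BG. Their Euclidean distances to JUN over the 4 libraries were between 0.067 (CPLX1) and 0.071 (HIST1H2BG) on the log2 scale. FOSB was 14th in this order at 0.11, FOS 29th at 0.15 and JUNB 54th at 0.20, while FOSL2 was 346th. These distances are on the rlog scale, so genes of different level are not strictly comparable. FOSB and JUN had deposited log2 fold changes of 1.54 and 1.14. For FOSB the closest were RAB4B at 0.03, HIST1H2BG, FAM171A2, HKDC1 and DUSP2, with JUN 25th. Histone gene copies are nearly alike, so the value of HIST1H2BG is uncertain.

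The knockdown itself was checked in the unannotated locus XLOC_005968, known as ARIEL from background and not named so in the table. Its rlog values were 12.02 and 11.91 in control cells and 10.58 and 10.55 after knockdown (-1.40 ± 0.04, SE; limma, adjusted p = 1.22e-249). T-cell markers were present as the labels state, with 8 of 9 listed genes matched and values between 12.46 and 16.77. Of these 2 rose and 3 fell, beside 22.1% and 22.4% of all tested genes. Of 16 markers of B cells, monocytes, epithelium and fibroblasts, 6 (MS4A1, CSF1R, EPCAM, CDH1, COL1A2 and DCN) were at 0 in all libraries and 5 were tested, of which 2 rose and 1 fell. The summed rlog level of the 4 B-cell markers went from between 10.92 and 11 to between 11.24 and 11.26, nearly all from CD79A (0.29 ± 0.04, SE), and its part in the results was not tested. The other marker sums were between 4.85 and 7.47 in control libraries and between 4.90 and 7.27 in knockdown libraries. Library depth is unknown, since the table holds no counts.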

How the data were processed

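RNA from 2 control (shRNA against GFP) and 2 ARIEL knockdown libraries was read as 100-base pairs from strand-specific libraries, per the labels' protocols. The table has 0 rows for the ERCC RNA added by cell number. DESeq2 1.12.4, STAR 2.5.2a, HTSeq 0.6.1 and hg19 are listed in the submitters' processing notes, without roles. The authors deposited, per the file headers, an rlog value (log2 scale) for each library. The authors also deposited a log2 fold change with SE, their ratio as a test score, a p-value and an adjusted p-value.

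The rlog values were tested as they are with limma 3.58.1 (R 4.3.3; trend on level) over the 14601 genes whose mean, taken back to the linear scale, reached 10, adjusted by Benjamini-Hochberg at 0.05. The prior degrees of freedom were infinite, so genes of a level share 1 spread. GC content and length came from the longest GENCODE 29 transcript, and their trend was removed by splines with 5 degrees of freedom. Neighbours and promoters came from RefSeq tables (Python 3.11.15, pandas 2.3.3). Replicate numbers were not taken as pairs, since the labels name no shared batch.

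The members and lists were chosen with earlier results of these data known. Named genes were all 10 members, up to 4 called genes per list with the largest difference, the 5 genes nearest to JUN (1 of which is not reported here) and to FOSB, and genes a result turned on, such as JDP2, other neighbours, MAPK8, MAPK9, MCL1, IL2 and genes at 0. Alternatives varied the filter, scaling, GC and length trend, pooling of the spread, p-values, replicate block and libraries.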

Additional observations from a re-analysis of the deposited data

How the results depend on the processing

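Under the 14 alternatives the members gave 126 values, of which 117 kept their direction and their side of the threshold. With each gene's own variance, limma called 0 genes over the whole table, 0 members higher and 0 lower, with 4561 genes at an unadjusted p under 0.05. That fit has 2 residual degrees of freedom per gene. The other exceptions were in BATF, which was called in no setting: its difference was -0.063 with the GC and length trend removed, and between -0.023 (without ARIEL knockdown replicate 2) and 0.058 with 1 library left out. With 1 library left out at a time, between 4225 and 6188 genes were called over the whole table, and 6 members were called higher and 1 lower each time; the lone library of a group is then assumed to vary like the others. With a replicate block 7426 genes were called, and 6 members higher and 1 lower, so the block changed no call of a member. Of the 17 kinase genes 5 were higher and 5 lower with the block. The correlation of the replicate differences between the groups over 14601 genes was 0.20. Depth is unknown, and FOSL1 lies too low for a test.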
